A study of Mus musculus with 9 samples.

Results

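Cytochrome P450 families 1 to 3 were examined in mouse liver as 46 genes, out of 16266 listed in both deposited tables. They are the rows whose symbol is Cyp1, Cyp2 or Cyp3 followed by 1 letter and a number, leaving out pseudogenes and Cyp2e1, the ethanol-oxidising member. By subfamily they are 2 genes of 1a, 1 of 1b, 4 of 2a, 3 of 2b, 14 of 2c, 7 of 2d, 1 of 2f, 1 of 2g, 3 of 2j, 3 other family 2 genes (Cyp2r1, Cyp2s1 and Cyp2u1) and 7 of 3a. Cyp2j8 matched the rule in 1 table only and was left out, and Cyp3a41a and Cyp3a41b, whose symbols end in a letter, are given as relatives and not counted.

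Liver RNA of wild-type mice was sequenced in 9 libraries, 3 in each of 3 groups. Mettl3OE EtOH-fed mice carried AAV8-TBG-Mettl3-3×FLAG-WPRE and ate the ethanol diet. WT EtOH-fed mice ate the same diet, and WT pair-fed mice a control diet. The design text gives both WT groups' virus only as the one without Mettl3, AAV8-TBG-MCS-3×FLAG-WPRE, and the sample titles name no virus. All mice received a virus through the tail vein, so every group carries a vector. The diet began 3 weeks later, lasted 10 days and ended with a single binge, of ethanol in both EtOH-fed groups and of maltose in the pair-fed group. The TBG promoter is active in hepatocytes, so the vector is aimed at these cells while the RNA is that of whole liver. Labels give no strain, sex, age or hour of collection. The groups are called Mettl3 livers, ethanol control livers and pair-fed livers below.

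P450 enzymes of these families are heme proteins of the endoplasmic reticulum. They take electrons from P450 reductase and insert oxygen into drugs, steroids, fatty acids and vitamins. Their genes are switched by ligand-activated receptors, above all AHR for family 1, CAR for subfamily 2b and PXR for subfamily 3a, on a base of liver-enriched factors. In mice many are also sex-biased through the pattern of growth hormone release, and most sit in tandem clusters of near-identical copies. METTL3 is the catalytic subunit of the complex that writes N6-methyladenosine on messenger RNA.

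Values are FPKM, reads per gene scaled to gene length and library total, and each library held between 34655840 and 38159563 reads over the genes of its table. Mettl3 itself had 38.5, 25.0 and 33.3 FPKM in the Mettl3 livers, 5.44, 4.86 and 3.78 FPKM in the ethanol control livers and 3.97, 3.10 and 3.38 FPKM in the pair-fed livers, which fits the labels. Summed over 11 hepatocyte markers, the level ran from 49913 to 59063 FPKM in Mettl3 livers, 54822 to 71119 FPKM in ethanol control livers and 65079 to 71811 FPKM in pair-fed livers. Most of that sum was Alb, which alone ran from 30108 to 47905 FPKM over the 9 livers. None of these markers was at 0. Xist, transcribed from the inactive X chromosome, ran from 50.7 to 58.4 FPKM in Mettl3 livers, 49.8 to 69.1 FPKM in ethanol control livers and 41.9 to 59.1 FPKM in pair-fed livers. The Y-linked Ddx3y was at or under 0.0223 FPKM in every liver. All 9 livers thus had the transcript pattern of female mice. In whole liver, fewer cells of a type and less RNA per cell cannot be told apart.

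Cyp2b10, Cyp2b9, Cyp2a5 and Cyp2a4 are shown first because values of close copies are set side by side below. Their promoters, the 250 bases before the start site in the RefSeq annotation of GRCm38.p6, all lie on the plus strand of chromosome 7, and run 5′ to 3′. For Cyp2b9 the start site used lies inside the RefSeq gene span, which begins at 26173350, so the end of its window overlaps that span. Capitals mark TATAAA, the TATA box, and TTGCNNAA, a loose C/EBP-type motif, both searched on both strands.
Cyp2b10 (chr7:25897408-25897657): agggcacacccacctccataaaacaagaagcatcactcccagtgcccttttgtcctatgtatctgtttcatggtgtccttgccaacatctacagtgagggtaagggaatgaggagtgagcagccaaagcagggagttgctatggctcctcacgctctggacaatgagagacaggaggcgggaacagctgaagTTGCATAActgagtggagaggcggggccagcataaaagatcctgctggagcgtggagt
Cyp2b9 (chr7:26173159-26173408): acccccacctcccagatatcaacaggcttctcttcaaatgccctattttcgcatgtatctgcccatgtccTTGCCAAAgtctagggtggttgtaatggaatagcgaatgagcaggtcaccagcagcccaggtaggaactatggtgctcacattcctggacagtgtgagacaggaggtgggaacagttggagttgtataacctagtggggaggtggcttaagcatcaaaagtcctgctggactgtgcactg
Cyp2a5 (chr7:26835089-26835338): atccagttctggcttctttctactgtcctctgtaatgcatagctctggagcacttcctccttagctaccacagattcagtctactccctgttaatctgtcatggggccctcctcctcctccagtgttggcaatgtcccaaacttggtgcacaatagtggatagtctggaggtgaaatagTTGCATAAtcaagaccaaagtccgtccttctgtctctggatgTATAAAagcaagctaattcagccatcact
Cyp2a4 (chr7:26306942-26307191): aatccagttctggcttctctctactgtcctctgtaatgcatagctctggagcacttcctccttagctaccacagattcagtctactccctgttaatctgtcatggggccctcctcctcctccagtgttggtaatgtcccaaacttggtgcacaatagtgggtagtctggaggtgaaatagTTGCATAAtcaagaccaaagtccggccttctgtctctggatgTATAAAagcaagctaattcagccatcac

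The Cyp2a5 and Cyp2a4 windows were 97.6% identical (245 of 251 aligned positions), and those of Cyp2b9 and its neighbour Cyp2b13 were 99.2% identical (248 of 250). Cyp2b10 and Cyp2b9 were 70% identical over 260 aligned positions. The letters TTGCATAA stood at -58 to -51 from the start site in Cyp2b10 and at -71 to -64 in Cyp2a5. They match both the C/EBP-type motif and a DBP box, searched as TTATGTAA, TTACATAA, TTACGTAA or TTATGCAA. A promoter window of 300 bases, with 50 after the start, was found for 40 of the 46 genes. TATAAA stood in 23 of these 40 windows (57.5%) and in 14.2% of 27025 windows of all genes. TTGCNNAA stood in 11 (27.5%), against 10.8% of all windows. An HNF4A element, searched as CAAAGTCC, CAAAGTCA or CAAAGGTCA, stood in 13 (32.5%), against 3.2%. The DBP box stood in 3 windows (7.5%), those of Cyp2a4, Cyp2a5 and Cyp2b10, against 1.84%. The AHR core TNGCGTG stood in 1 window (2.5%), that of Cyp2c68, against 5.15%. A DR4 element, searched as AGGTCA or AGTTCA, then NNNN, then either of them again, stood in 0 of the 40 windows, against 0.0259%. Only 7 of all 27025 windows held it, so 40 windows are too few to read anything from that count. Sequence beyond these 300 bases was not searched for any of the elements. Tandem copies share promoter sequence, so these windows are not independent, and a match of letters is not a binding site.

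The closeness of copies also bears on counting. Cyp2a5 and Cyp2a4 have 23 mismatches over 1482 coding bases (98.4% identity). A 90-base stretch, coding bases 580 to 669, is shown with its mismatches in capitals. It was chosen for holding the most mismatches (5), so no other stretch of that length separates their reads by more.
Cyp2a5: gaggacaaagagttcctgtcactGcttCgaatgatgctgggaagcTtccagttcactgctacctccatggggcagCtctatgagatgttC
Cyp2a4: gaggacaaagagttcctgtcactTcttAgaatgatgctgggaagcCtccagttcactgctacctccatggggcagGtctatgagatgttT
From Cyp2a5 to Cyp2a4, counted from the first coding base, the substitutions are G603T, C607A, T625C, C655G and C669T. Of all 50-base windows of Cyp2a5, 51.6% recur unchanged in another gene, and 40.5% of those of Cyp2a4. This share was 75.3% for Cyp2c40, 60.1% for Cyp2c69, 54.7% for Cyp2c67, 45.5% for Cyp2c68 and 43.4% for Cyp2d10, so the split of reads among such copies is uncertain. It was 0% for Cyp2c23, Cyp2c55, Cyp2c70, Cyp2f2, Cyp2j9, Cyp2r1 and Cyp3a13, and 12.3% for Cyp2b10.

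The ethanol diet, set against pair feeding under the control virus, asked how a chronic and binge ethanol exposure left the drug-metabolising P450 genes. Most of the abundant members of subfamilies 2c, 2d, 2j and 3a were lower in ethanol control livers, Cyp2b10 was far higher, and Cyp2f2 and the 2a genes other than Cyp2a5 were not called. Summed over all 46 genes, the level was 7266, 5414 and 5932 FPKM in ethanol control livers, against 8631, 8864 and 9219.5 FPKM in pair-fed livers. The highest ethanol control liver lay below the lowest pair-fed liver, and the ratio of the means was 0.697. The Mettl3 livers summed to 4984, 4777 and 6272 FPKM.

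**Figure D1:**
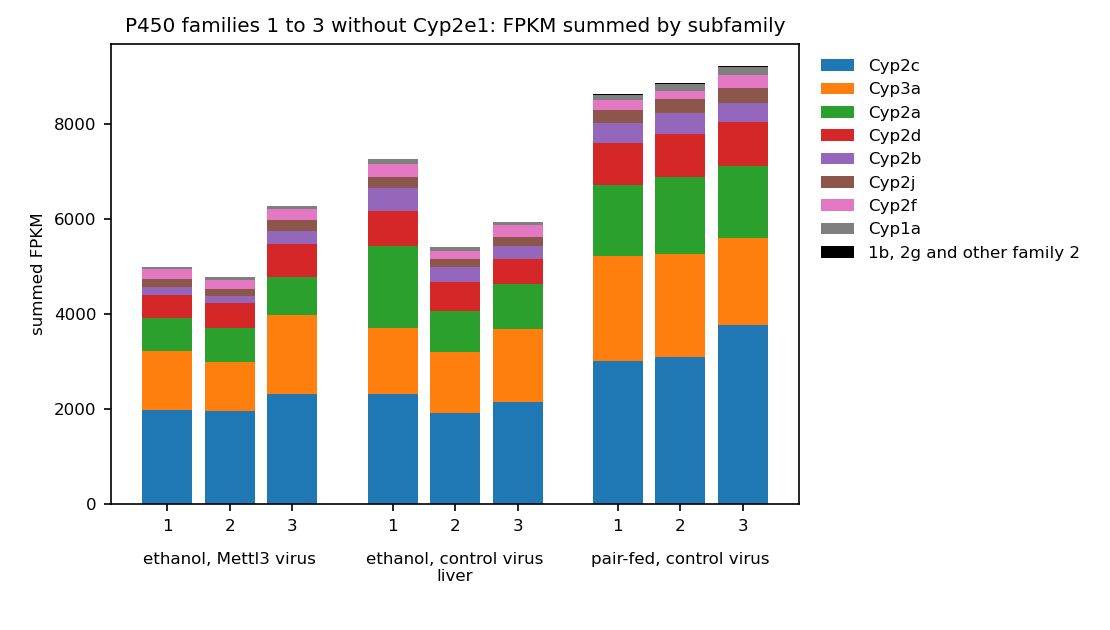
FPKM summed by subfamily in each of the 9 livers, as stacked bars from 0, with livers numbered within their group. The pair-fed bars reach 8631 to 9219.5 FPKM, above every ethanol-fed bar, and subfamily 2c is the largest block in each.

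Genes were tested with limma on log2(FPKM + 1), keeping those at 1 FPKM or more in at least 3 livers and calling an adjusted p below 0.05. Of the 46 genes, 38 passed that filter in the ethanol comparison. Among them 24 were lower, 3 were higher (Cyp2b10, Cyp2c70 and Cyp3a13) and 11 were not called, while of all 10064 genes tested 36.0% were called, 26.0% lower and 10.0% higher. Every ethanol control liver lay below every pair-fed liver for 24 genes (37.2% of all genes) and above for 4 (15.4%). In the authors' deposited test 22 of the 46 were lower and 5 higher (Cyp2b10, Cyp2c70, Cyp2d40, Cyp2u1 and Cyp3a13) at q below 0.05, against 12.6% and 14.0% of the genes listed. The median log2 fold change was -0.65 over the 38 and -0.14 over all genes. Cyp2b10 passed the filter only through ethanol control livers and Cyp2g1 only through pair-fed livers, and Cyp2c55 and Cyp2j9 passed with 1 ethanol control liver at the minimum. Without the filter all 46 could be tested, and 21 were lower and 1 higher (Cyp2b10), against 15.8% and 5.65% of 16842 genes. Median-ratio scaling, which moved the median of all genes to 0.01, gave 22 lower and 4 higher, against 16.7% and 17.6% of all genes. Leaving out pair-fed liver 2 left 14 genes lower, leaving out pair-fed liver 3 left 15, and leaving out ethanol control liver 1 gave 27. Of the 27 calls, 16 held in every alternative in which the gene could be tested.

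Mettl3 virus, set against control virus under the same ethanol diet, asked whether raising the methyltransferase changed these genes. The 2a, 2b and 1a genes had lower means in Mettl3 livers, and most 2c genes had means close to those of the ethanol control livers, but none of 35 genes tested was called by limma. The number called over all 9706 genes was 1, Mettl3, or 0.0103%. Unadjusted p was below 0.05 for 7 of the 35 and for 723 of all genes. The log2 fold change was negative for 32 of the 35 (91.4%), against 58.9% of all genes, with medians of -0.23 and -0.04, and with median-ratio scaling for 25 of the 35, against 45.2% of all genes. Every Mettl3 liver lay below every ethanol control liver for 5 genes, Cyp1a2, Cyp2a22, Cyp2a5, Cyp2b10 and Cyp2c39, as for 6.62% of all genes, and none had every Mettl3 liver above, against 6.17%. In the authors' deposited test Cyp2b10 alone of the 46 passed q below 0.05. It was lower, as were 0.510% of 16470 genes, and 0.103% were higher.

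Mettl3 livers differed from pair-fed livers in both virus and diet, and this comparison shares its samples with the others. Of 38 genes tested in the fit of all 9 livers, 28 were lower, 2 higher (Cyp2b10 and Cyp3a13) and 8 not called, while 48.8% of 10229 genes were called, 34.9% lower and 13.9% higher. Every Mettl3 liver lay below every pair-fed liver for 29 genes (44.2% of all genes) and above for 2 (19.3%). The median log2 fold change was -0.997 over the 38 and -0.18 over all genes. Without the filter 28 of 46 were lower and 2 higher, against 26.5% and 9.29% of 16266 genes. With median-ratio scaling 25 of 38 were lower and 2 higher, against 21.6% and 25.3%.

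**Figure D2:**
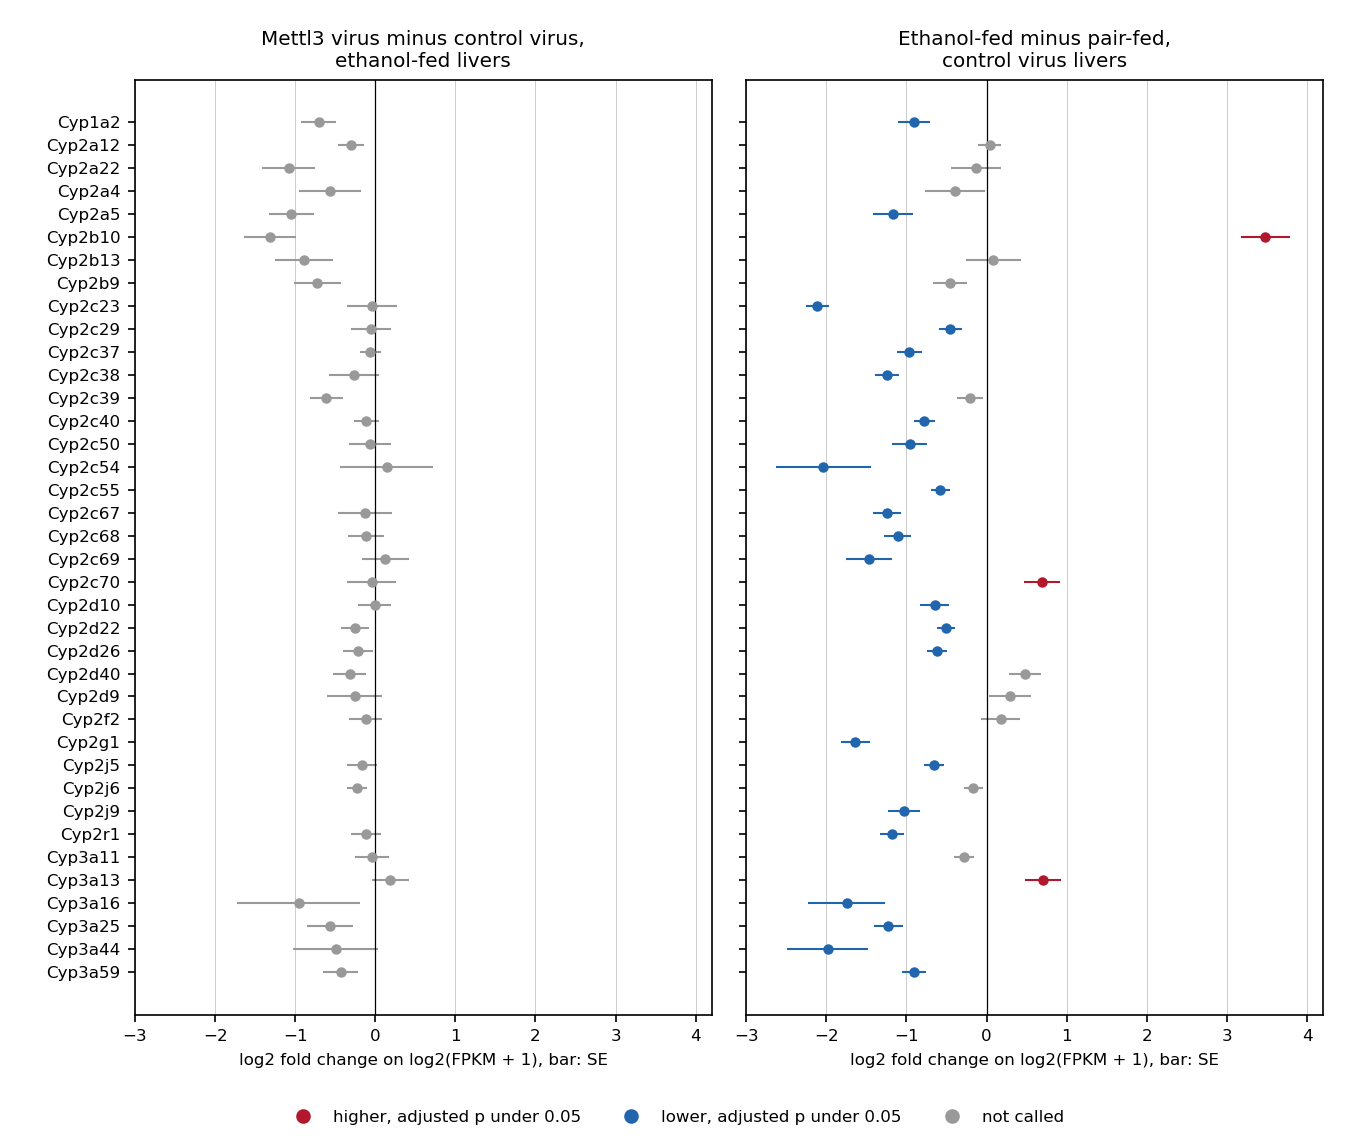
Log2 fold change on log2(FPKM + 1), with its standard error, for each tested gene, ordered by subfamily. The left panel sets Mettl3 livers against ethanol control livers and the right panel ethanol control livers against pair-fed livers. On the right 24 points are called lower and Cyp2b10 stands alone at 3.48, while on the left no point is called and 32 of 35 lie below 0 (25 of 35 with median-ratio scaling).

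Livers within a group were not alike. Ethanol control liver 1 was the highest of its group for 31 of 38 genes (60.5% of all genes), and Mettl3 liver 3 for 30 of 38 (56.9% of all genes). Pair-fed liver 3 was the highest of its group for 21 of 38, against 36.8% of all genes.

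Family 1 oxidises planar aromatic compounds. Cyp1a2, the constitutive liver member that clears caffeine, had 35.5, 55.7 and 53.8 FPKM in Mettl3 livers, 95.8, 78.2 and 63.5 FPKM in ethanol control livers, and 113, 164 and 169.6 FPKM in pair-fed livers. The 3 groups did not overlap. Cyp1a2 (chromosome 9, 57676937 to 57683655, GRCm38) fell in ethanol control livers against pair-fed livers by 0.90 on the log2 scale (SE 0.20, limma adjusted p 0.0137), a call lost without pair-fed liver 2 or 3. Between Mettl3 and ethanol control livers the log2 fold change was -0.71 (SE 0.22, limma adjusted p 0.641), and between Mettl3 and pair-fed livers -1.61 (limma adjusted p 0.00121). Cyp1a1, its inducible neighbour, averaged 0.0575 ± 0.0259 FPKM in Mettl3 livers, 0.150 ± 0.0447 FPKM in ethanol control livers and 0.286 ± 0.0136 FPKM in pair-fed livers (SD, n = 3 each). Cyp1b1 stayed between 0.0989 and 0.364 FPKM in all livers. Both were below the filter and were not tested.

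Subfamily 2a holds steroid and coumarin hydroxylases. For ethanol 1 of its closest copies, Cyp2a5, was called and the other, Cyp2a4, was not. The difference between the copies was not tested. Cyp2a5, the coumarin hydroxylase (chromosome 7, 26835339 to 26843264), had 83.1, 138 and 122 FPKM in Mettl3 livers, 331, 216 and 175 FPKM in ethanol control livers, and 414, 559.5 and 619 FPKM in pair-fed livers. Each group lay wholly below the next. It fell by 1.17 in ethanol control livers against pair-fed livers (SE 0.25, limma adjusted p 0.012), a call lost without pair-fed liver 2 or 3. It fell by 2.22 in Mettl3 livers against pair-fed livers (SE 0.27, limma adjusted p 0.000726). Mettl3 livers against ethanol control livers gave a log2 fold change of -1.05 (SE 0.28, p 0.00679, limma adjusted p 0.641), and the authors' deposited table gave q 0.0552.

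Cyp2a4, a testosterone 15-alpha-hydroxylase, had 285, 255 and 351 FPKM in Mettl3 livers, 831, 273 and 366 FPKM in ethanol control livers, and 632, 608 and 495 FPKM in pair-fed livers. Ethanol control liver 1 was the highest of all 9, and the other ethanol control livers lay below every pair-fed liver. The log2 fold change of ethanol control against pair-fed livers was -0.40 (SE 0.37, limma adjusted p 0.428), and -0.86 without ethanol control liver 1 (limma adjusted p 0.00546). Mettl3 against pair-fed livers gave -0.96 (limma adjusted p 0.0444), a call that held in 6 of 15 alternatives. The call was lost without any single pair-fed liver, Mettl3 liver 1 or 2, or ethanol control liver 3. It was also lost without the filter, under median-ratio scaling and in limma-voom. Within a liver the ratio of Cyp2a5 to Cyp2a4 was 0.292, 0.540 and 0.348 in Mettl3 livers, 0.399, 0.793 and 0.478 in ethanol control livers, and 0.656, 0.920 and 1.25 in pair-fed livers. Cyp2a12 averaged 295 ± 17.8 FPKM in Mettl3 livers, 369 ± 73.1 FPKM in ethanol control livers and 355 ± 11.1 FPKM in pair-fed livers (SD, n = 3 each), and was not called in any comparison. Its close copy Cyp2a22 had 25.3, 47.3 and 33.6 FPKM in Mettl3 livers, 117, 63.2 and 54.1 FPKM in ethanol control livers, and 94.3, 96.9 and 58.1 FPKM in pair-fed livers. Every Mettl3 liver lay below every other liver, with a log2 fold change of -1.08 against ethanol control livers (SE 0.33, p 0.0132, limma adjusted p 0.641) and -1.22 against pair-fed livers (limma adjusted p 0.0145). That last call was lost without pair-fed liver 1 or 2 or Mettl3 liver 1.

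Subfamily 2b holds the textbook targets of CAR. Cyp2b10, whose transcript is the usual read-out of CAR activity in mouse liver (chromosome 7, 25897658 to 25926624), had 5.36, 4.67 and 5.58 FPKM in Mettl3 livers, 15.2, 8.29 and 23.2 FPKM in ethanol control livers, and 0.355, 0.389 and 0.401 FPKM in pair-fed livers. In reads these were 377, 326 and 400 in Mettl3 livers, 991, 580 and 1623 in ethanol control livers, and 25, 27 and 28 in pair-fed livers. The 3 groups were apart, with the Mettl3 livers in the middle. The mean of ethanol control livers was 40.8 times that of pair-fed livers, and the log2 fold change on log2(FPKM + 1) was 3.48 (SE 0.31, limma adjusted p 0.000841). Mettl3 livers were 13.6 times pair-fed livers (log2 fold change 2.16, limma adjusted p 0.000909) and 0.334 times ethanol control livers. That last difference had a log2 fold change of -1.31 (SE 0.32, p 0.00442, limma adjusted p 0.641), with adjusted p from 0.208 to 1 over the alternatives. The authors' deposited table gave it a log2 fold change of -1.53 and q 0.00785. Without an ethanol control liver Cyp2b10 no longer met the filter of the ethanol comparison and could not be tested.

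Cyp2b9, a female-biased copy, stood far above Cyp2b10 per length and showed another pattern. It had 136, 129 and 224 FPKM in Mettl3 livers, 377, 222 and 212 FPKM in ethanol control livers, and 354, 362 and 363 FPKM in pair-fed livers. Ethanol control liver 1 was again above the pair-fed livers and the other 2 below them. The log2 fold change was -0.46 in ethanol control against pair-fed livers (SE 0.21, limma adjusted p 0.127), and -0.73 without ethanol control liver 1 (limma adjusted p 0.00105). Mettl3 livers against pair-fed livers gave -1.19 (SE 0.26, limma adjusted p 0.00564). Cyp2b13 averaged 33.7 ± 10.2 FPKM in Mettl3 livers, 66.0 ± 27.3 FPKM in ethanol control livers and 59.3 ± 15.1 FPKM in pair-fed livers (SD, n = 3 each) and was not called.

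**Figure D3:**
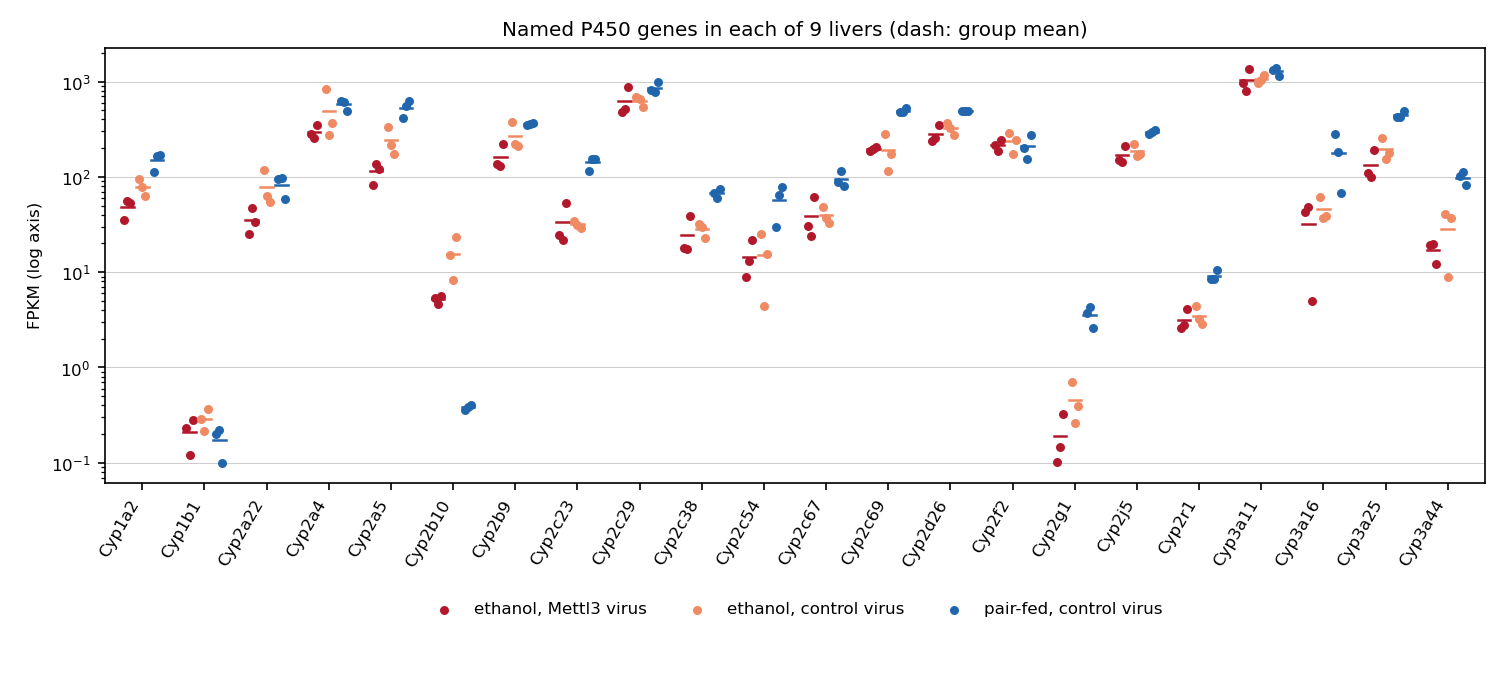
FPKM on a log axis of the P450 genes described liver by liver, with Mettl3 livers left, ethanol control livers in the middle and pair-fed livers right, and a dash at each group mean. Cyp2b10 is the gene in which pair-fed livers sit far below both other groups (0.355 to 0.401 FPKM), while Cyp2g1, Cyp2c23 and Cyp3a44 show the opposite order.

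Subfamily 2c, the largest, makes epoxides of arachidonic acid and hydroxylates drugs and steroids. Of its 14 genes 13 were tested for ethanol, with 11 lower, 1 higher and 1 not called, and no 2c gene was called between Mettl3 and ethanol control livers. Its sum was 1984, 1954 and 2309 FPKM in Mettl3 livers, 2315, 1905 and 2149.5 FPKM in ethanol control livers, and 3019.5, 3097 and 3766 FPKM in pair-fed livers. The median log2 fold change was -0.97 in ethanol control against pair-fed livers and -0.07 in Mettl3 against ethanol control livers. Cyp2c65 stayed at or under 0.135 FPKM and was not tested.

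Cyp2c23, an arachidonate epoxygenase best known from kidney (chromosome 19, 44005022 to 44029256), had 24.8, 21.9 and 53.0 FPKM in Mettl3 livers, 34.6, 31.6 and 28.9 FPKM in ethanol control livers, and 114, 155 and 155 FPKM in pair-fed livers. Both ethanol-fed groups lay below all pair-fed livers and overlapped each other. Its log2 fold change was -2.11 in ethanol control against pair-fed livers (SE 0.14, limma adjusted p 0.000424) and -2.15 in Mettl3 against pair-fed livers (limma adjusted p 0.00102). None of its 50-base windows recurs in another gene. Cyp2c54 had 8.89, 13.1 and 21.6 FPKM in Mettl3 livers, 25.3, 4.39 and 15.5 FPKM in ethanol control livers, and 30.1, 64.8 and 78.2 FPKM in pair-fed livers. The pair-fed livers were all above the rest but spread widely. The fall of 2.04 for Cyp2c54 in ethanol control livers (SE 0.59, limma adjusted p 0.0335) passed in 6 of 12 alternatives, and was lost without ethanol control liver 2 or 3 or pair-fed liver 2 or 3. That call was also lost without the filter and with the replicate block. In Mettl3 against pair-fed livers Cyp2c54 had a log2 fold change of -1.90 (limma adjusted p 0.0237), a call lost without pair-fed liver 2 or 3 or Mettl3 liver 1 or 2.

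Cyp2c29, the most abundant 2c transcript, had 475, 513 and 887 FPKM in Mettl3 livers, 688, 651 and 537 FPKM in ethanol control livers, and 813, 770.1 and 990.2 FPKM in pair-fed livers. Ethanol control livers were below pair-fed livers, whereas Mettl3 liver 3 lay among them. The fall of 0.45 (SE 0.14, limma adjusted p 0.0422) held in 2 of 12 alternatives only, and was lost under median-ratio scaling and without any single liver other than ethanol control liver 1. The call was also lost without the filter, in limma-voom, with the replicate block and in the fit of all 9 livers. Cyp2c69 had 185, 194 and 205 FPKM in Mettl3 livers, 281, 115 and 175 FPKM in ethanol control livers, and 485, 482 and 524 FPKM in pair-fed livers. Pair-fed livers were above all others. Cyp2c69 fell by 1.47 in ethanol control livers (SE 0.28, limma adjusted p 0.00846). Cyp2c38 had 18.0, 17.4 and 38.8 FPKM in Mettl3 livers, 32.4, 29.8 and 22.7 FPKM in ethanol control livers, and 68.5, 60.5 and 74.3 FPKM in pair-fed livers. Cyp2c67 had 30.6, 23.8 and 61.7 FPKM in Mettl3 livers, 48.3, 37.1 and 33.0 FPKM in ethanol control livers, and 89.2, 115 and 80.1 FPKM in pair-fed livers. In both genes the pair-fed livers were above every other liver, and both fell by 1.24 in ethanol control livers (limma adjusted p 0.00195 for Cyp2c38 and 0.00327 for Cyp2c67). Mettl3 against pair-fed livers gave -1.51 for Cyp2c38 and -1.37 for Cyp2c67 (limma adjusted p 0.00306 and 0.00711).

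The other 2c genes that fell in ethanol control livers were Cyp2c37 (-0.97), Cyp2c40 (-0.78), Cyp2c50 (-0.96), Cyp2c55 (-0.58) and Cyp2c68 (-1.11), as log2 fold changes. The Cyp2c50 call was lost without pair-fed liver 2 or 3 or ethanol control liver 3. Cyp2c39 was called for ethanol only without ethanol control liver 1. Cyp2c70, which hydroxylates bile acids to the muricholic acids of mice, went the other way. It had 715, 616 and 341 FPKM in Mettl3 livers, 460.2, 498 and 721 FPKM in ethanol control livers, and 348, 261 and 429 FPKM in pair-fed livers. Ethanol control livers were above pair-fed livers, while Mettl3 liver 3 lay within the pair-fed range. The rise of 0.69 (SE 0.23, limma adjusted p 0.0487) passed in 4 of 12 alternatives and was lost without any single liver other than ethanol control liver 1. That call was also lost with a pseudocount of 0.1, without the filter and in the fit of all 9 livers.

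Subfamily 2d metabolises amine drugs. Its most abundant member, Cyp2d26, had 236, 255 and 349.8 FPKM in Mettl3 livers, 367, 326 and 274 FPKM in ethanol control livers, and 489.9, 493 and 493 FPKM in pair-fed livers. Pair-fed livers were tight and above all others. Cyp2d26 fell by 0.62 in ethanol control livers against pair-fed livers (SE 0.12, limma adjusted p 0.00914). Cyp2d22 fell by 0.50, a call lost without pair-fed liver 2 or 3. Cyp2d10 fell by 0.65, a call that held in 3 of 12 alternatives and was lost without any single liver other than ethanol control liver 1. The Cyp2d10 call was also lost without the filter, under median-ratio scaling, in limma-voom and with the replicate block. Cyp2d9, a male-biased steroid hydroxylase, averaged 12.8 ± 7.06 FPKM in Mettl3 livers, 14.6 ± 3.39 FPKM in ethanol control livers and 12.0 ± 3.95 FPKM in pair-fed livers (SD, n = 3 each) and was not called. Cyp2d40 was not called for ethanol (log2 fold change 0.48, limma adjusted p 0.0914) but was higher under median-ratio scaling, limma-voom and the replicate block. Cyp2d11 and Cyp2d34 stayed at or under 0.442 FPKM and were not tested.

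The smaller subfamilies of family 2 diverged. Cyp2f2, a naphthalene oxidase known from lung and periportal liver, had 214, 185 and 243 FPKM in Mettl3 livers, 288, 176 and 244 FPKM in ethanol control livers, and 201, 155 and 272 FPKM in pair-fed livers. The 3 groups overlapped, with a log2 fold change of 0.18 in ethanol control against pair-fed livers (SE 0.24, limma adjusted p 0.588). Cyp2g1, first known from olfactory mucosa, had 0.101, 0.145 and 0.325 FPKM in Mettl3 livers, 0.701, 0.261 and 0.392 FPKM in ethanol control livers, and 3.73, 4.32 and 2.57 FPKM in pair-fed livers. Pair-fed livers were well above both ethanol-fed groups. It fell by 1.64 in ethanol control livers (SE 0.18, limma adjusted p 0.0013) and by 1.91 in Mettl3 livers (limma adjusted p 0.000209), both against pair-fed livers. In both comparisons Cyp2g1 passed the filter only through pair-fed livers, the group in which it was higher. With a pair-fed liver left out it could not be tested. Cyp2j5, an epoxygenase of liver and kidney, had 152, 145 and 210.3 FPKM in Mettl3 livers, 223, 167 and 174 FPKM in ethanol control livers, and 279.8, 297 and 308 FPKM in pair-fed livers. Pair-fed livers were again above every other liver, and Cyp2j5 fell by 0.66 in ethanol control livers (SE 0.13, limma adjusted p 0.00867). Cyp2j9 fell by 1.03 from low levels, and Cyp2j6 was called lower only in Mettl3 against pair-fed livers (-0.39), in 9 of 15 alternatives. That call was lost under median-ratio scaling, in limma-voom and without pair-fed liver 2 or 3 or Mettl3 liver 1 or 2.

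Cyp2r1, the vitamin D 25-hydroxylase, had 2.61, 2.79 and 4.07 FPKM in Mettl3 livers, 4.43, 3.21 and 2.86 FPKM in ethanol control livers, and 8.44, 8.40 and 10.6 FPKM in pair-fed livers. Both ethanol-fed groups were below all pair-fed livers, and Cyp2r1 fell by 1.18 in ethanol control livers (SE 0.16, limma adjusted p 0.00246) in every alternative. Cyp2u1 averaged 0.829 ± 0.394 FPKM in Mettl3 livers, 1.22 ± 0.591 FPKM in ethanol control livers and 0.579 ± 0.170 FPKM in pair-fed livers (SD, n = 3 each), below the filter, and was higher for ethanol in the authors' deposited table (q 0.00563). Cyp2s1 stayed at or under 0.183 FPKM.

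Subfamily 3a, the main PXR-driven steroid and drug hydroxylases, differed by member. Cyp3a11, the most abundant of all 46 genes by mean FPKM, had 966, 804 and 1362 FPKM in Mettl3 livers, 961, 1027 and 1169 FPKM in ethanol control livers, and 1327, 1386 and 1132 FPKM in pair-fed livers. The groups overlapped, with a log2 fold change of -0.28 in ethanol control against pair-fed livers (SE 0.13, limma adjusted p 0.113). Cyp3a25 had 109, 101 and 192 FPKM in Mettl3 livers, 253, 154 and 177 FPKM in ethanol control livers, and 421, 428 and 496 FPKM in pair-fed livers. All pair-fed livers were higher than all others, and Cyp3a25 fell by 1.23 in ethanol control livers (SE 0.18, limma adjusted p 0.0038) and by 1.79 in Mettl3 livers (limma adjusted p 0.00124), both against pair-fed livers. Cyp3a59, its near-identical copy (97.5% of coding bases), fell by 0.91 in ethanol control livers.

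Cyp3a44, a female-biased copy, had 19.3, 19.9 and 12.1 FPKM in Mettl3 livers, 40.5, 8.92 and 36.7 FPKM in ethanol control livers, and 102, 111 and 82.3 FPKM in pair-fed livers. Pair-fed livers were above every other liver. It fell by 1.98 in ethanol control livers (SE 0.51, limma adjusted p 0.0223), a call lost when any 1 pair-fed liver was left out, and by 2.48 in Mettl3 livers against pair-fed livers (limma adjusted p 0.00369). Cyp3a16, a female-biased and fetal member, had 42.6, 48.6 and 4.97 FPKM in Mettl3 livers, 61.3, 37.2 and 38.4 FPKM in ethanol control livers, and 279.6, 183 and 67.9 FPKM in pair-fed livers. Both pair-fed liver 3 and Mettl3 liver 3 were well under the rest of their groups. The fall of 1.75 in ethanol control livers (SE 0.48, limma adjusted p 0.0283) passed in 6 of 12 alternatives and was lost without pair-fed liver 1 or 2 or ethanol control liver 2 or 3. That call was also lost without the filter and in the fit of all 9 livers. Mettl3 against pair-fed livers gave -2.70 (SE 0.78, limma adjusted p 0.0196), a call lost without pair-fed liver 1 or 2. Cyp3a13 had 85.6, 65.3 and 79.6 FPKM in Mettl3 livers, 51.1, 62.6 and 93.4 FPKM in ethanol control livers, and 48.4, 34.0 and 40.7 FPKM in pair-fed livers. Both ethanol-fed groups were above all pair-fed livers. It rose by 0.71 in ethanol control livers (SE 0.23, limma adjusted p 0.0457), a call that held in 5 of 12 alternatives. The call was lost without any single liver other than ethanol control liver 1, without the filter and with the replicate block. In Mettl3 livers Cyp3a13 rose by 0.89 (limma adjusted p 0.00988), in every alternative. Cyp3a57 stayed at or under 0.127 FPKM.

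Genes linked in the literature to the same receptor did not all move alike. Of 8 linked to CAR, 1 was higher for ethanol (Cyp2b10), 5 lower (Cyp2c29, Cyp2c37, Cyp2c50, Cyp2c54 and Cyp2c55) and 2 not called. Of 7 linked to PXR, Cyp3a41a among them, 1 was higher (Cyp3a13), 4 lower (Cyp3a16, Cyp3a25, Cyp3a44 and Cyp3a59) and 2 not called. Of 3 linked to AHR, only Cyp1a2 was tested, and it was lower. Over all 10064 genes tested, 26.0% were lower and 10.0% higher.

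Nr1i3, which encodes CAR, had 28.9, 23.0 and 59.2 FPKM in Mettl3 livers, 61.4, 33.5 and 38.7 FPKM in ethanol control livers, and 148, 158 and 164 FPKM in pair-fed livers. Its transcript was thus below the pair-fed range in all 6 ethanol-fed livers, in which Cyp2b10 was above it. Nr1i3 fell by 1.84 in ethanol control livers (SE 0.21, limma adjusted p 0.00158) and by 2.17 in Mettl3 livers (limma adjusted p 0.00148), both against pair-fed livers. The PXR gene Nr1i2 averaged 13.6 ± 5.81 FPKM in Mettl3 livers, 20.7 ± 9.00 FPKM in ethanol control livers and 35.6 ± 5.67 FPKM in pair-fed livers (SD, n = 3 each), and its fall of 0.82 in ethanol control livers passed narrowly (limma adjusted p 0.0489). Of 27 regulators in the list, 26 were tested for ethanol. Of these 2 were higher (Cebpb and Foxa3) and 12 lower, 10 of them Nr1i3, Nr1i2, Rxra, Cebpa, Foxa1, Foxa2, Nr3c1, Ppara, Nr0b2 and Dbp, and the others Tef and Hlf, where 10.0% of all genes tested were higher and 26.0% lower. None of the 26 was called between Mettl3 and ethanol control livers, where Nfe2l2 had the smallest p (log2 fold change -0.84, p 0.0131, limma adjusted p 0.641). Mettl3 against pair-fed livers gave 2 higher and 14 lower of the 26, where 13.9% of all genes tested were higher and 34.9% lower.

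Dbp, Tef and Hlf are clock-driven activators of Nr1i3 and of P450 genes. Dbp had 3.23, 2.25 and 11.6 FPKM in Mettl3 livers, 8.74, 4.27 and 2.19 FPKM in ethanol control livers, and 37.8, 39.4 and 44.1 FPKM in pair-fed livers, with a log2 fold change of -2.92 in ethanol control against pair-fed livers (SE 0.36, limma adjusted p 0.00203). Tef fell by 1.07 and Hlf by 1.00 in the same comparison. Mettl3 liver 3 and ethanol control liver 1 were the highest of their groups for Dbp, as they were for most P450 genes. The labels give no hour of collection, and its part in these values was not tested. Hnf4a averaged 135 ± 4.95 FPKM in Mettl3 livers, 119.9 ± 22.0 FPKM in ethanol control livers and 120.0 ± 18.9 FPKM in pair-fed livers (SD, n = 3 each) and was not called.

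Genes that serve the P450 reaction were counted as well. Of 19 electron donors and heme genes, 9 were lower for ethanol (Cyb5a, Cyb5b, Pgrmc1, Pgrmc2, Alad, Urod, Cpox, Ppox and Fech), 2 higher (Hmox1 and Flvcr1) and 8 not called, where 26.0% of all genes were lower and 10.0% higher. Flvcr1 passed the filter of that comparison only through ethanol control livers, the group in which it was called higher. Por, the P450 reductase, had 65.8, 49.7 and 85.7 FPKM in Mettl3 livers, 117, 86.1 and 126 FPKM in ethanol control livers, and 136, 164 and 148 FPKM in pair-fed livers. The 3 groups did not overlap. Its log2 fold change was -0.45 in ethanol control against pair-fed livers (SE 0.16, limma adjusted p 0.0585), -0.72 in Mettl3 against ethanol control livers (SE 0.23, p 0.0163, limma adjusted p 0.641) and -1.17 in Mettl3 against pair-fed livers (limma adjusted p 0.00261). Cyb5b, a cytochrome b5, fell by 0.99 in ethanol control livers, and Alad, a heme synthesis enzyme, by 1.09. Hmox1, which breaks down heme, had 31.4, 32.0 and 33.2 FPKM in Mettl3 livers, 43.5, 47.3 and 29.9 FPKM in ethanol control livers, and 14.5, 15.1 and 15.5 FPKM in pair-fed livers. It rose by 1.34 in ethanol control livers (SE 0.17, limma adjusted p 0.0022). None of the 19 was called between Mettl3 and ethanol control livers.

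**Figure D4:**
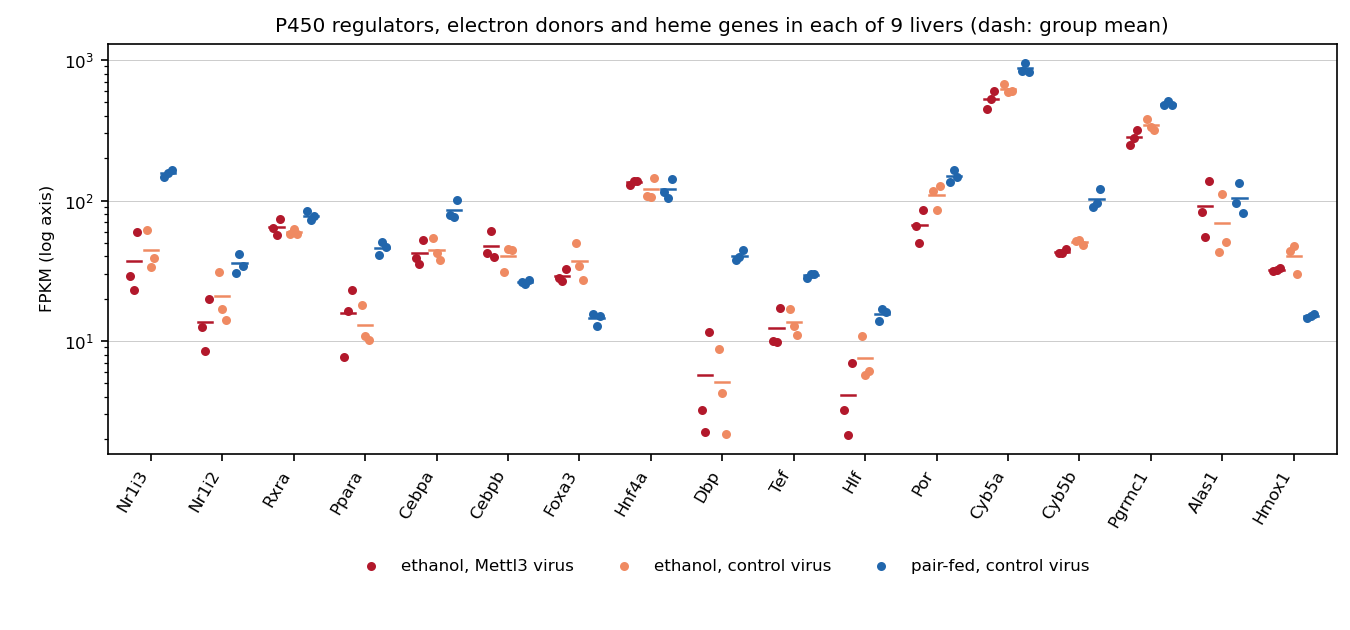
FPKM on a log axis of genes that regulate or serve P450 enzymes, in the same group order and with a dash at each mean. Nr1i3 and Dbp sit lower in both ethanol-fed groups than in pair-fed livers (148 to 164 FPKM for Nr1i3), Hmox1 sits higher, and Por is lowest in Mettl3 livers.

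Sex-biased genes were counted apart. Of 11 female-biased P450 genes, Cyp3a41a and Cyp3a41b included, 4 were lower for ethanol (Cyp2c40, Cyp2c69, Cyp3a16 and Cyp3a44), 1 was higher (Cyp2b10) and 6 were not called. Over all genes tested 26.0% were lower and 10.0% higher, so in 11 genes these counts are near the background. Cyp3a41a averaged 123 ± 40.7 FPKM in Mettl3 livers, 176 ± 62.7 FPKM in ethanol control livers and 195 ± 32.7 FPKM in pair-fed livers (SD, n = 3 each). Of 24 tested growth hormone regulators and sex-biased genes outside these families, 9 were lower, 1 was higher (Cyp17a1) and 14 were not called. Of all genes tested, 26.0% were lower and 10.0% higher. Every ethanol control liver lay below every pair-fed liver for 13 of the 24, and for 37.2% of all genes. The median log2 fold change was -0.57 over the 24 and -0.14 over all genes, and no test over this list was made. Among the lower ones Slco1a1 passed the filter only through pair-fed livers. The 4 with the smallest p, all lower, were Acot3 (-5.04), the growth hormone receptor Ghr (-1.06), its feedback inhibitor Socs2 (-1.26) and the female-biased repressor Cux2 (-1.52). These are log2 fold changes in ethanol control against pair-fed livers. Igf1 (-0.14), Cish (0.075) and Bcl6 (0.26) were among the 14 not called.

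Zonal genes outside these families and markers of other cells were set beside these results. Of 12 pericentral genes, 7 were lower for ethanol and none higher, with Rgn at -1.15 and Lgr5 at -1.08. Of 12 periportal genes, 5 were higher and 4 lower. The shares over all genes were 26.0% lower and 10.0% higher. Kupffer cell markers summed to between 106 and 204 FPKM in Mettl3 livers, 127 and 192 FPKM in ethanol control livers and 247 and 281 FPKM in pair-fed livers, and 8 of 9 were lower for ethanol. Neutrophil markers summed to between 48.5 and 104 FPKM in Mettl3 livers, 9.14 and 72.5 FPKM in ethanol control livers, and 7.37 and 11.4 FPKM in pair-fed livers. Of 6 neutrophil markers Mpo was not in both tables, and 1 of 4 tested was higher for ethanol (S100a8). T, NK and B cell markers summed to between 1.05 and 1.99 FPKM in Mettl3 livers, 1.1 and 1.68 FPKM in ethanol control livers, and 3.6 and 4.33 FPKM in pair-fed livers, and none of the 5 passed the filter. Sinusoidal endothelial markers summed to between 88.4 and 101 FPKM in Mettl3 livers, 88.7 and 89.8 FPKM in ethanol control livers, and 107 and 121 FPKM in pair-fed livers. Of 7 tested, 5 were lower for ethanol (Stab2, Stab1, Clec4g, Dnase1l3 and Kdr) and Lyve1 was higher. Stellate cell markers summed to between 132 and 149 FPKM in Mettl3 livers, 123 and 152 FPKM in ethanol control livers, and 151 and 175 FPKM in pair-fed livers, with 4 of 8 lower (Lrat, Reln, Colec11 and Rgs5). The Kupffer cell, sinusoidal endothelial and T, NK and B cell sums were thus lower in both ethanol-fed groups than in pair-fed livers. Of 11 hepatocyte markers, Tat was higher for ethanol, and Apoa2, Asgr1 and Pck1 were lower. Hepatocyte and stellate cell sums were lower in Mettl3 than in pair-fed livers and overlapped between ethanol control and pair-fed livers. Most of the stellate sum was Dcn, at 93.4 to 116 FPKM over the 9 livers. Neutrophil sums went the other way, above the pair-fed range in Mettl3 livers and overlapping it in ethanol control livers. Of 4 cholangiocyte markers tested Sox9 was higher, of 3 erythroid ones Hbb-bt was higher, and no others of these were called. Sox9 passed the filter only through ethanol control livers, the group in which it was called higher. The part of these cells in the P450 results was not tested.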

How the data were processed

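Libraries were made with the VAHTS Universal V6 kit, per the labels. The submitters' processing notes list the tools fastp, HISAT2 and HTSeq and the build mm10; versions and the strand setting are not given in the sources used here. The authors deposited 2 tables of 6 libraries each, with FPKM per library. Per the file headers, a signal column (BaseMean, size-factor scaled means), a linear fold ratio, its log2, a p-value and a q-value follow from DESeq2. The ethanol control columns are in both tables, and recovered reads were equal for 16266 of 16266 genes, so the 9 livers share a scale. Whole reads were recovered from FPKM and signal values within a tolerance of 0.05.

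FPKM was tested as log2(FPKM + 1) with limma 3.58.1 (lmFit, eBayes with trend and robust settings) in R 4.3.3, keeping genes at 1 FPKM or more in 3 or more libraries. Benjamini-Hochberg adjustment ran over all genes tested, with a threshold of 0.05. The first 2 comparisons used their own 6 libraries, and Mettl3 against pair-fed livers all 9. A log2 fold change on this scale understates changes of low genes. Fits were tested on simulated data. P-values measure the spread between 3 samples a group; the labels name no separate animals. Intervals of counting error are not given, since reads are not independent molecules.

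The genes and lists were chosen with earlier results of these data known, and no test over a list was made. Named genes are the most abundant of each subfamily, up to 10 called with the largest log2 fold change per comparison, or 3 with the smallest p where none was called. From each other list up to 4 genes with the smallest p could be named. Group means or per-liver values of Cyp1a1, Cyp2a12, Cyp2b13, Cyp2c70, Cyp2d9, Cyp2u1, Cyp3a13, Cyp3a41a, Nr1i2 and Hnf4a, and the values of Xist and Ddx3y, were added after they were seen. So were the ranges of Alb and Dcn and the log2 fold changes of Igf1, Cish and Bcl6. Promoters came from RefSeq (GRCm38.p6), coding sequences from GENCODE M21 on GRCm38, with Biopython 1.88, Python 3.11.15, numpy 2.4.6, pandas 2.3.3 and matplotlib 3.10.9.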

Additional observations from a re-analysis of the deposited data

How the results depend on the processing

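Alternatives were a pseudocount of 0.1, no filter, median-ratio scaling, limma-voom on recovered reads with median-ratio factors (chosen after seeing that the unit is FPKM), a replicate block, another set of libraries in the fit, and leaving out each liver. The planned count test and the voom fit with TMM factors were not run because FPKM, not counts, was deposited. Over the named P450 genes alone, 719 values kept their direction and side of the threshold, 47 lost the call and 4 gained one. Another 28 changed sign, all of genes not called as reported or under that alternative. They were log2 fold changes of Cyp2a22 for ethanol (0.050 with median-ratio scaling, 0.037 with voom, -0.46 to 0.086 with a liver left out), and of Cyp2c23 (0.041, 0.012 and -0.42 to 0.20), Cyp2c29 (0.032, 0.003 and -0.33 to 0.12) and Cyp3a11 (0.042, 0.012 and -0.25 to 0.13) for Mettl3 against ethanol control livers. With a liver left out alone, Cyp2f2 ran from -0.018 to 0.38 for ethanol, -0.32 to 0.038 for Mettl3 against ethanol control livers and -0.14 to 0.27 for Mettl3 against pair-fed livers. In the Mettl3 against ethanol control comparison Cyp2c67 ran from -0.51 to 0.16, Cyp2r1 from -0.27 to 0.027, Cyp2c54 from -0.51 to 0.63, Cyp2c69 from -0.19 to 0.45 and Cyp3a16 from -1.49 to 0.033. P450 genes outside the named set are not in these counts, and some of them changed sign as well. For ethanol Cyp2a12 ran from -0.11 to 0.22 and Cyp2b13 from -0.16 to 0.48 over the alternatives. For Mettl3 against ethanol control livers Cyp2c70 ran from -0.26 to 0.27 and Cyp2d10 from -0.13 to 0.20.

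For ethanol against pair-fed livers, P450 genes higher numbered 1 without a filter and 0 to 2 with a liver left out, in part because Cyp2b10 then fails the filter. P450 genes lower numbered 14 to 27 and all genes called 1538 to 4743 with a liver left out. For Mettl3 against ethanol control livers, the number of all genes called was 0 without a filter, 3 in the fit of 9 libraries and 0 to 2 with a liver left out. The cause was not tested.

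Replicate numbers were shared between groups, but whether the numbers pair the livers could not be decided from 3 livers a group. Deviations of same-numbered livers correlated at -0.188, -0.113 and 0.113 (ethanol control with pair-fed) and at -0.350, 0.394 and -0.412 (Mettl3 with ethanol control). Those of livers with other numbers ran from -0.215 to 0.305 and from -0.513 to 0.580, in the same order. With the replicate block, 21 P450 genes were lower and 3 higher for ethanol, 0 were called between Mettl3 and ethanol control livers (0 of all genes), and 28 were lower and 2 higher between Mettl3 and pair-fed livers.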
